A study of Mus musculus with 5 samples.

Results

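The untreated-only promoter peaks are 370 H3K9ac peaks of serum-starved striatal cells that lay at the start of a protein-coding gene and had no counterpart in the same cells treated with DOP. They were chosen by 2 conditions on the positions of the called peaks: the peak centre lay within 1 kb of the start of a protein-coding transcript, and no peak centre of the DOP list lay within 2 kb. Of the 33355 peaks of the untreated list, 25008 lay at such a start, and the 370 peaks were 1.48% of these (95% Wilson interval 1.34 to 1.64%, which covers counting error only). They formed 284 loci, in which centres within 1 kb of each other were joined, and their nearest starts belonged to 285 genes. Counting every gene with a start within 1 kb, they touched 289 of the 11259 genes that had an untreated promoter peak (2.57%). DOP-only promoter peaks touched 431 of 11377 genes with a DOP promoter peak (3.79%). The counts in gene lists given further on are to be read against these shares. Because the DOP list itself chose them, the number of peaks, their scores and their distance to a DOP peak are descriptions and were not tested.

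The cells were STHdh Q111 cells, conditionally immortalized striatal progenitor cells of the C57BL/6 mouse strain with both copies of the huntingtin gene in the mutant form (STHdhQ111/Q111). All groups were held in medium without serum for 24 h, with the vehicle DPBS in the untreated group and with 4 mM DOP (4-deoxypyridoxine hydrochloride), an inhibitor of sphingosine-1-phosphate lyase, in the treated group. H3K9ac was immunoprecipitated from 2 samples of each group, and 1 IgG sample of untreated cells is not analysed here. Each group is represented by 1 deposited peak list, 33355 peaks without DOP and 34286 with it, so no spread between samples can be given for any value, and the read depth behind a peak is unknown. The cells come from 1 line, and the sources used here do not say whether the 2 samples of a group came from separate cultures. Of the progenitor markers, Vim, Sox9 and Cdh2 had promoter peaks in both lists, whereas Nes, Sox2, Pax6 and Fabp7 had none in either. The fibroblast markers Col1a1, Col1a2, Pdgfra and Pdgfrb also had peaks in both lists, which is 4 of the 6 genes of that list. The astrocyte markers searched (Gfap, Aqp4, S100b and Aldh1l1) had no promoter peak in either list. The same held for the microglia markers searched (Aif1, Itgam, Cx3cr1 and Csf1r). Further markers of these 2 cell types were not in the lists searched, and some of them did have promoter peaks. Kcnj10, also used as an astrocyte marker, and Tmem119, used for microglia, had untreated-only promoter peaks with scores of 41 and 129. Slc1a3, another astrocyte marker, had a DOP-only promoter peak.

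Acetylation of lysine 9 on histone H3 is placed by acetyltransferases and removed by histone deacetylases, and it marks the nucleosomes that flank the starts of active genes. It is read by proteins with bromodomains or YEATS domains, which recruit the machinery of transcription elongation. Peaks of this mark at a promoter are therefore commonly used to list the genes whose promoters are active in a cell.

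The sequences under 8 members are shown because their intervals are high-scoring members, with no DOP centre within 2 kb, and because they range from CpG-dense to repeat-bearing sequence. All are read 5′ to 3′ on the plus strand of the NCBIM37 (mm9) assembly and hold no annotated UTR base. Capitals mark matches, on either strand, to the short motifs that were searched and are spelled out further on. For Arid1a the UTR bases of the peak were left off, and 120 bases upstream of the start remained (chr4:133309527-133309646, gene on the minus strand). The others are whole peak intervals of 200 bp: Zbtb7b (chr3:89196156-89196355, minus strand gene), Zbtb10 (chr3:9251336-9251535, plus), Tmem63a (chr1:182872162-182872361, plus), Sox4 (chr13:29044333-29044532, minus), Rest (chr5:77695535-77695734, plus), Dab2 (chr15:6337290-6337489, plus) and Nrp2 (chr1:62749577-62749776, plus).
Arid1a: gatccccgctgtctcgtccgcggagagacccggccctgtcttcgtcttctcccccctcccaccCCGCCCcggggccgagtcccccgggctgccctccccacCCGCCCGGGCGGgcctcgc
Zbtb7b: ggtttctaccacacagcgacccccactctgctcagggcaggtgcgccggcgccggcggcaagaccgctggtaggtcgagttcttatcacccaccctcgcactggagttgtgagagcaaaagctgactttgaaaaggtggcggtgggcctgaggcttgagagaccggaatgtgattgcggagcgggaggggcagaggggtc
Zbtb10: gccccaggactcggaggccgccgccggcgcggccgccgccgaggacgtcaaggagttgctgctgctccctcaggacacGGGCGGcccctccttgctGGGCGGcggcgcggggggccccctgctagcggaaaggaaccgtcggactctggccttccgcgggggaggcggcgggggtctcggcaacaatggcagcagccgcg
Tmem63a: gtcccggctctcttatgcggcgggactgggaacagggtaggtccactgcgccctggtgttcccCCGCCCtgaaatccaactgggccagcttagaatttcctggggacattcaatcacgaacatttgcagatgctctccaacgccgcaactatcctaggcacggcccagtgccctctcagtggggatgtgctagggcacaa
Sox4: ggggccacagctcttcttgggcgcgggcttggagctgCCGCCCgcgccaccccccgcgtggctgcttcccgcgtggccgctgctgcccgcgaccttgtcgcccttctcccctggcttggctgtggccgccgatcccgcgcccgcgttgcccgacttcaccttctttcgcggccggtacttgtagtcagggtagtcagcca
Rest: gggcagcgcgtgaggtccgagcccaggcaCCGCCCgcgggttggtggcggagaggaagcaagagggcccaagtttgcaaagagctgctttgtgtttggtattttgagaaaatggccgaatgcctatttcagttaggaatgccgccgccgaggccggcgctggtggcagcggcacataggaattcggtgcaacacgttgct
Dab2: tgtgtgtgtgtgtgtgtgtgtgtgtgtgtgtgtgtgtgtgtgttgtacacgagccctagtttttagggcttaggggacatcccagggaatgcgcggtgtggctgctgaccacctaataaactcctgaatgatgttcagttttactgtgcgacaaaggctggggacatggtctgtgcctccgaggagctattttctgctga
Nrp2: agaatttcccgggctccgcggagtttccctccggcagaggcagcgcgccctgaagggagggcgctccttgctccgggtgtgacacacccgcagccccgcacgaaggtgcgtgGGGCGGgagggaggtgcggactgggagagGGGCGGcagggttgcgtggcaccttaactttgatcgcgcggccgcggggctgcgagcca
The Zbtb10 interval was 76.5% G and C, with 26 CpG dinucleotides and 2 GC boxes. The Zbtb7b interval held 13 CpG dinucleotides and the Dab2 interval 5, and neither held a match to any motif searched. The Dab2 interval opens with a run of TG repeats.

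The members ranged from faint to strong, and most were faint. Their score, a value from the deposited list whose definition the list does not give, had a median of 99.5 and ranged from 21.5 to 1914.2. On a percentile scale within the untreated list, where the highest score stands at 100, the median member was at 11.2, whereas the other 24638 promoter peaks had a median of 59.4. The share of promoter peaks without a DOP counterpart was 21.9% (174 of 794) among peaks in the lowest 10% of the list by score, 4.62% in the next 10% and 0.290% (9 of 3106) in the highest 10%. The mirror set, promoter peaks of the DOP list with no untreated centre within 2 kb, comprised 547 of 25276 peaks (2.16%, interval 1.99 to 2.35%). Its share was 34.4% in the lowest 10% of the DOP list and 0.0944% (3 of 3177) in the highest 10%. Over the whole lists the members were thus fewer than the DOP-only promoter peaks. In the top 50% of each list, however, there were 49 members at 31 genes and 23 DOP-only promoter peaks at 19 genes.

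**Figure D1:**
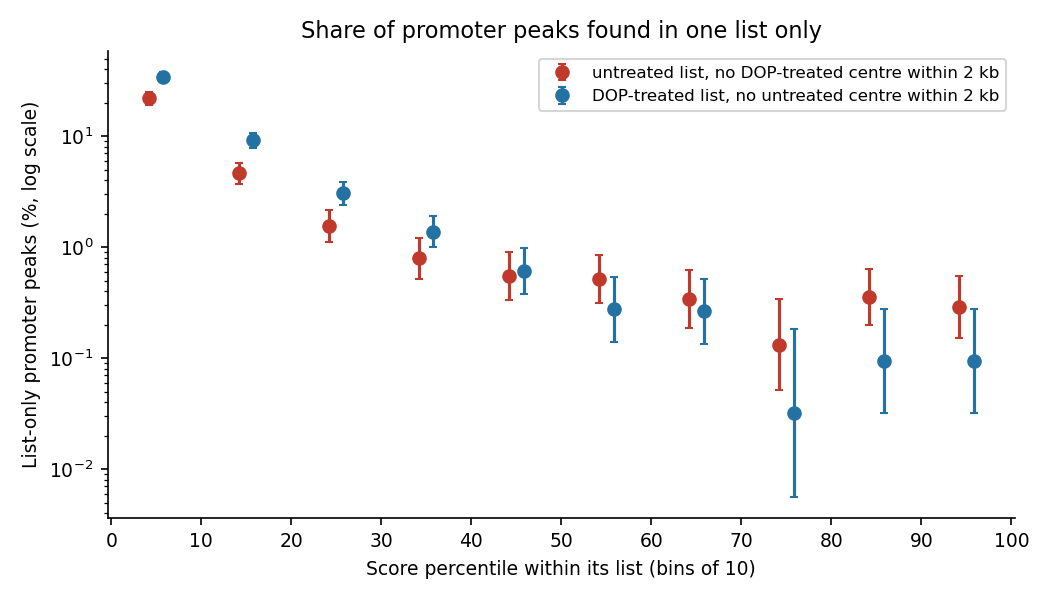
Share of promoter peaks found in 1 list only (vertical axis, %, log scale) by score percentile within the peak's own list (horizontal axis, bins of 10), for the untreated list (red) and the DOP list (blue); bars are 95% Wilson intervals for counting error only. The share fell from 21.9% to 0.290% in the untreated list and from 34.4% to 0.0944% in the DOP list, and the blue points lie above the red ones in the bottom 50% and below them in the top 50%.

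Across the whole genome, 2351 of the 33355 untreated peaks (7.05%) had no DOP centre within 2 kb, so promoter peaks lacked a counterpart less often than the list as a whole. This comparison is not matched for score. Promoter peaks numbered 794 in the lowest 10% of the list and 3106 in the highest 10%, and the part of score in the difference was not tested. The nearest DOP centre lay 2104 bp to 1951 kb from a member, with a median of 39206 bp. It lay between 2 and 5 kb away for 29 members, between 5 and 10 kb for 36, between 10 and 100 kb for 213 and beyond 100 kb for 92. The most distant was at Lrch2 (chrX:143988162-143988361, score 64), where the nearest DOP centre was 1951 kb away. Of the 285 genes, 208 had no DOP peak within 10 kb of any of their starts, and 37 had one within 1 kb of another start of the same gene. A gap between neighbouring DOP centres held at least 2 untreated peaks for 307 members, and 63 members were the only untreated peak in theirs.

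Of the 6 highest-scoring members, 3 lay at Arid1a and 1 each at Gm10716, Zbtb7b and Zbtb10. When the 285 genes were sorted by known function, a sorting made after the genes were seen and therefore not tested, 39 encoded regulators of transcription or chromatin and carried 58 peaks. They supplied 11 of the 31 genes with a member in the top 50% of the list, with 20 of the 31 in other classes, and 27 of the 39 had a member with a score of at least 100. Neither this class nor the other classes of the sorting were counted over all genes with a promoter peak. The share of a class among the members therefore has no background to be read against, here and in the class counts further on. The 58 regulator peaks had a median percentile of 23.5, and 22 of the 39 regulator genes had no DOP peak within 10 kb.

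**Figure D2:**
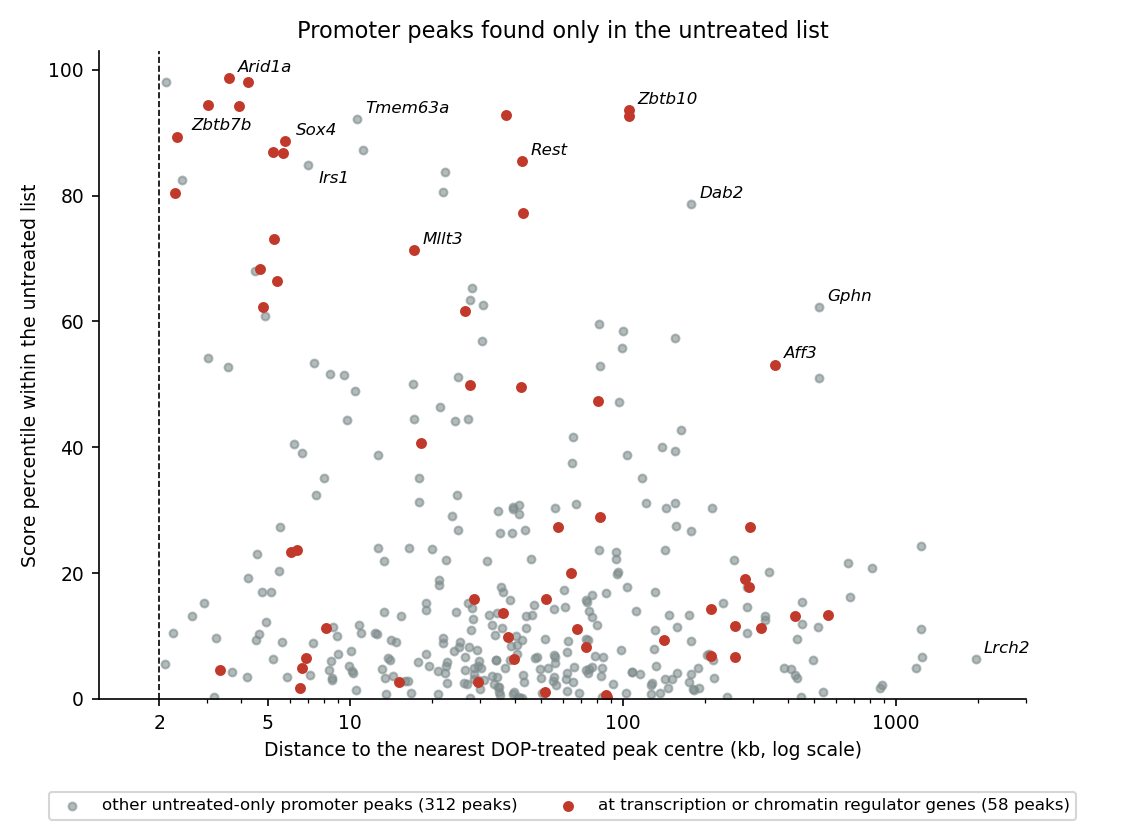
Each point is 1 of the 370 untreated-only promoter peaks; the horizontal axis is the distance to the nearest DOP centre (kb, log scale; the dashed line is the 2 kb limit of the rule) and the vertical axis is the score percentile within the untreated list. Red points are the 58 peaks at transcription or chromatin regulators. Arid1a stands highest at 98.7, Zbtb10 combines a percentile of 93.5 with a distance of 105 kb, and the points beyond 200 kb that reach the top 50% are those of Gphn and Aff3.

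Arid1a, a subunit of the BAF (SWI/SNF) chromatin remodelling complex, carried the highest-scoring member and 3 of the 5 highest. The peak at chr4:133309447-133309646, 20 bp upstream of the start, had a score of 1914.2 and ranked 434 in the untreated list. The peak 602 bp downstream (chr4:133308825-133309024, coding exon) had 1762.1 and ranked 636, and the peak 275 bp downstream (chr4:133309152-133309351, coding exon) had 1299.7 and ranked 1932. The DOP list had no centre there and had 1 peak near a further start of the gene, 3632 bp upstream, with a score of 774. In the untreated list the upstream site held 3 centres, at 2902, 3548 and 3713 bp, with scores of 463, 387.1 and 348.9. The upstream start was thus marked in both lists and the downstream start in the untreated list only.

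Zbtb10, a zinc finger protein of the BTB family, had 2 members in a stretch of 355 kb with no DOP centre. They lay 833 bp and 308 bp downstream of the start, with scores of 1255.3 (chr3:9251336-9251535, coding exon) and 1205.7 (chr3:9250811-9251010, 5′ UTR). A further untreated peak 1349 bp downstream had a score of 594, and the nearest DOP centre was 105 kb away. The 5′ UTR interval of Zbtb10 aligned to a second place in the genome by the criteria used here, and the coding exon interval did not.

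Rest, the repressor that silences neuronal genes outside neurons and that wild-type huntingtin is known to hold in the cytoplasm, carried 3 members. Their scores were 739.8 at 83 bp, 927.4 at 413 bp and 395.9 at 725 bp downstream of the start (chr5:77695205-77695404 in the 5′ UTR, and chr5:77695535-77695734 and chr5:77695847-77696046 in an intron or a non-coding exon). The nearest DOP centre lay 42313 bp from the closest of them, and the gap between DOP centres spanned 214 kb and held 5 untreated peaks. Nkrf, which represses genes of the NF-kappaB pathway, carried 2 members with scores of 399 and 134.

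Sox4, an HMG-box transcription factor of progenitor cells, had 3 members with scores of 1025.8, 669.4 and 573.8 within 510 bp of each other on chromosome 13. The 2 nearest DOP peaks lay 5323 and 5986 bp upstream of its start, with scores of 575 and 362.

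Zbtb7b, which directs T cells to the helper lineage, had 2 members with scores of 1305 and 1050 and a further untreated peak of 856.3 at 2104 bp upstream. The DOP list had peaks of 739 and 533.6 at 3277 and 4354 bp upstream, beside untreated peaks at 3254 and 4339 bp. Tsc22d4, a leucine zipper protein of the TSC22 family, was the gene with most members, 4, with scores of 971.3, 968.7, 598 and 522. Its nearest DOP peaks lay 5624 and 6319 bp upstream of the same start. Of the 6 loci in the maps, 4 had a DOP peak within 10 kb and 2 (Zbtb10 and Rest) had none within 10 kb of the start drawn.

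**Figure D3:**
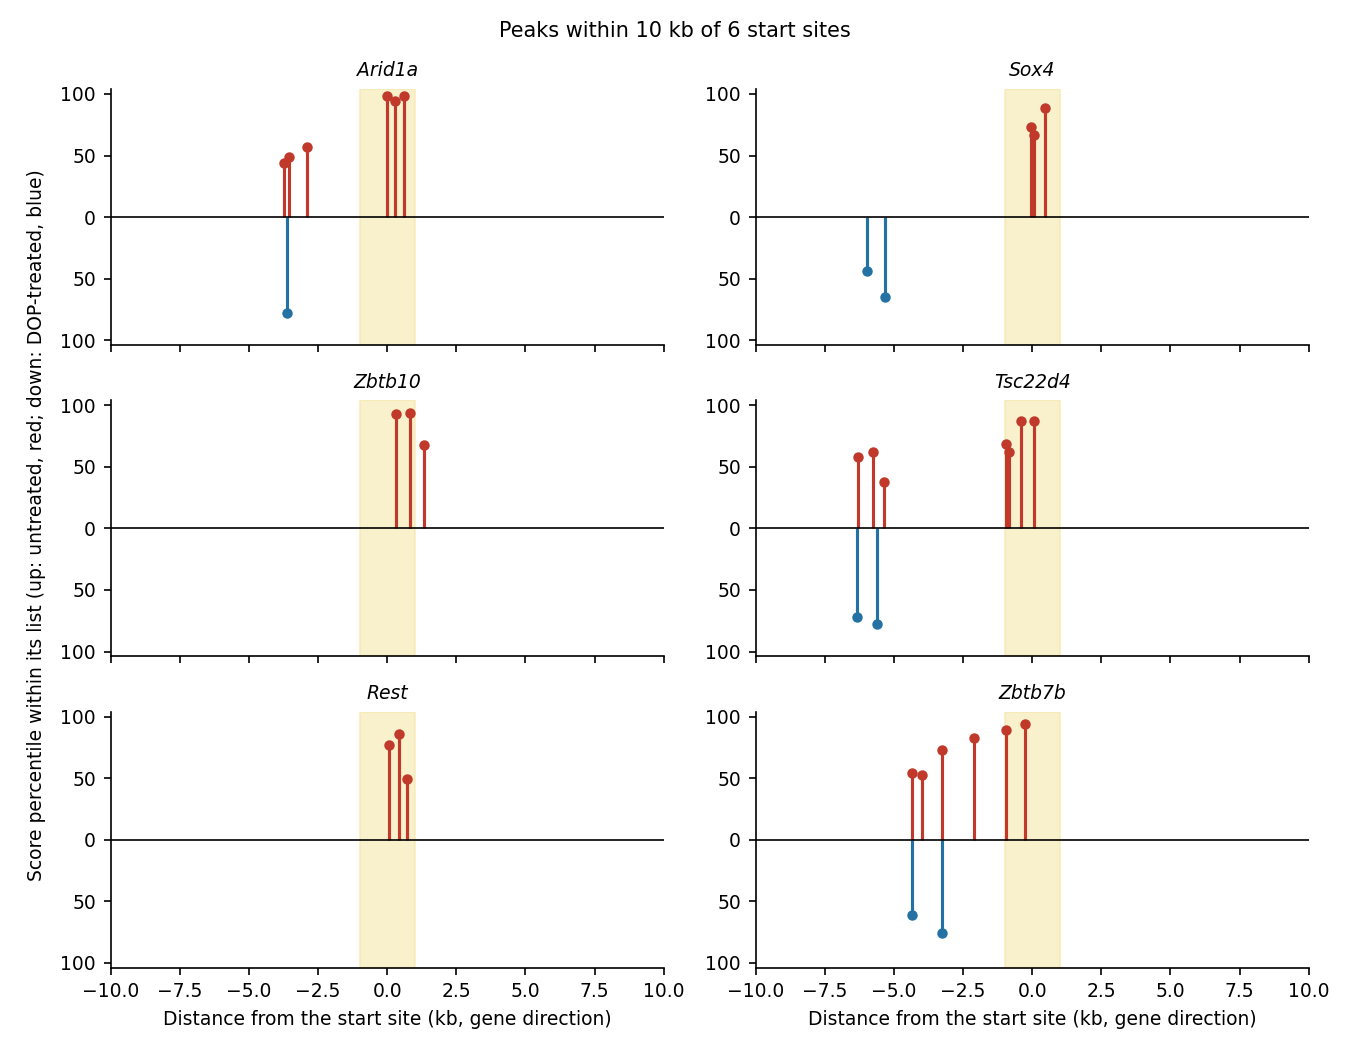
Peaks within 10 kb of the start nearest to the top member at 6 regulator genes of high score; the horizontal axis is the distance from that start (kb, in the direction of the gene) and the vertical axis is the score percentile within the peak's own list, upward for untreated (red) and downward for DOP (blue). The yellow band is 1 kb on either side of the start: it holds red lines only, 3 at Arid1a, 3 at Rest and 4 at Tsc22d4, and the blue lines of Arid1a, Sox4, Tsc22d4 and Zbtb7b stand outside it.

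Mllt3 encodes AF9, a YEATS domain protein that binds acetylated H3K9 and belongs to the super elongation complex. Its 2 members had scores of 642 (chr4:87678431-87678630) and 320, with the nearest DOP centre 17171 bp away. Aff3, of the AF4 family of elongation factors, had 1 member with a score of 429, 360 kb from a DOP centre. Vgll4, which competes with YAP for TEAD factors, had a member with a score of 516 in sequence of 42.5% G and C, and over all its starts had 3 untreated and 3 DOP peaks. The other regulators had members of lower score. Lbh reached percentile 47.4 and Plagl1, an imprinted zinc finger gene, percentile 28.9. Etv4, Lhx2, Epas1, Kctd15, Creb3l3 and Kctd1 each carried 2 members with top percentiles from 0.598 (Kctd1) to 23.6 (Etv4). Gli2, a transcription factor of hedgehog signalling, had 1 member at percentile 13.2, 425 kb from a DOP centre.

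At 37 genes the DOP list did have a peak, at another start of the same gene, so the member describes 1 promoter and not the gene. Hif1a, the oxygen-regulated transcription factor, had a member with a score of 54, with 3 untreated and 2 DOP peaks over all its starts. Tcfeb, a regulator of lysosome genes, had 5 peaks in each list and 1 member with a score of 38. Ablim1, an actin-binding protein, had 5 untreated and 3 DOP peaks and a member with a score of 242. Of the genes, 4 (Plekha7, Rab11fip4, Synj2 and Zbtb7c) were nearest to both a member and a DOP-only promoter peak. At the remaining 248 genes no start had a DOP peak within 1 kb.

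Axon, synapse and neuronal cytoskeleton genes numbered 30, with 42 members at a median percentile of 10.0, and 2 of them reached the top 50%. Gphn, the scaffold of glycine and GABA receptors, had members of 522.9 (chr12:79327841-79328040, 298 bp downstream of the start) and 408.1 (39 bp upstream), and no DOP centre lay within 521 kb. Nrp2, a neuropilin that receives semaphorin signals, had members of 438 and 426, with a DOP centre 3028 bp from the nearer. Ephb2 and Epha4, ephrin receptors that guide axons, had 1 member each, with scores of 239 and 137 and with the nearest DOP centre 212 kb and 675 kb away. Mapt, which encodes tau, had members of 133.6 and 130.4, 73.2 kb from the nearest DOP centre. Syn1, a synaptic vesicle protein, had 1 member with a score of 40. Ank2, Cdh18, C1ql1, Sema3d, Reep1, Dlgap3 and Slain1 carried 2 or 3 members each, all at or below percentile 20.3. Of the list of axon and neurite growth genes, 23 had an untreated promoter peak and 4 of these (Epha4, Ephb2, Mapt and Nrp2) carried a member, beside 289 of 11259 genes in all (2.57%). The list had 1 gene, L1cam, with a DOP-only promoter peak.

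Signalling genes numbered 30 with 38 members, and 3 of them reached the top 50%. Irs1, the adaptor of the insulin receptor, had members of 909 (chr1:82287155-82287354, 5′ UTR) and 275.7, with a DOP centre 7035 bp from the nearer. Dab2, a clathrin adaptor for membrane receptors, had members of 767 and 211 in a stretch of 1321 kb without a DOP centre. Gprc5c, an orphan receptor, had 3 members, the highest with a score of 495 and a DOP centre 81816 bp away. Dusp2, a phosphatase of MAP kinases, Pde3b, which hydrolyses cyclic AMP, and Adm, the peptide adrenomedullin, followed with scores of 329, 315 and 305. Arhgef4, Ppp1r14c, Gpr25 and Rasal1 carried 2 members each at or below percentile 13.2. None of the 20 genes with an untreated promoter peak in the list of sphingolipid metabolism and S1P signalling carried a member, beside 2.57% over all genes, and nothing is read from a count of 0 in a list of this length.

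Interferon and innate immune genes numbered 19 with 26 members, at a median percentile of 13.5. The highest was I830012O16Rik, the interferon-induced gene that RefSeq names Ifit3b, with members of 410 and 348, whose intervals also aligned elsewhere. Oasl1 (191), Rsad2 (178) and Ifi44 (165), all induced by interferon, had 1 member each, and Mx1, an antiviral GTPase, had a score of 53. Trim12c had a score of 295 and Ripk3, a kinase of necroptosis, 254. Tnfaip6 and Il1r1, the receptor of interleukin 1, carried 2 members each, with top scores of 235 and 232. Il17d, Trim30a, Ch25h and Ifi203 carried 2 each as well. Of 36 genes of the interferon list with an untreated promoter peak, Mx1 and Rsad2 carried a member, and Isg15, Psmb8 and Tlr3 had a DOP-only promoter peak, beside 2.57% and 3.79% over all genes. With counts of 2 and 3 nothing is read from either share. In this group 6 of the 26 intervals, at 4 genes, had a second alignment or repeated sequence nearby.

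Tmem63a, a mechanically gated cation channel, stood alone among 14 genes for channels and solute carriers in the top 50% of the list. Its members had scores of 1175.3 (chr1:182872162-182872361, 214 bp upstream of the start) and 980.7 (chr1:182872654-182872853, 5′ UTR), with a DOP centre of score 74 at 10638 bp. The next gene, Slc37a2, had a score of 127. The potassium channel genes Kcnj10 and Kcnk2 had members with scores of 41 and 38. Among 159 solute carrier genes with an untreated promoter peak 7 carried a member, 4.40% beside 2.57% over all genes, and 7 of the family had a DOP-only promoter peak. The highest of the 7 were Slc37a2 (127), Slc16a9 (115), Slc29a1 (114), Slc9a9 with 2 members (97.7) and Slc6a4, the serotonin transporter (88).

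Metabolic and mitochondrial genes numbered 20 with 27 members. Chchd1, a protein of the mitochondrial ribosome, had members of 594 and 509, with a DOP centre 4501 bp away. Pfkp, a phosphofructokinase of glycolysis, had members of 483 and 454, 99.1 kb from a DOP centre. Mgat1, Hsd17b11 and Galnt13 carried 2 or 3 members each, and the 3 of Galnt13, which starts mucin-type sugar chains, lay 1237 kb from a DOP centre. Ndufb3, a subunit of respiratory complex I, was the only one of 78 nuclear oxidative phosphorylation genes with an untreated promoter peak that carried a member. None of the 78 cytosolic ribosomal protein genes, 64 histone genes or 40 cilium and centrosome genes with such a peak carried one. Over all genes the share was 2.57%, and nothing is read from counts of 0 or 1 in lists of this length.

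Some members lay across the shared promoter of a divergent gene pair. Fam126b and Ndufb3 start 61 bp apart on opposite strands of chromosome 1, and 3 members from 351 to 559.3 lay there. 2310061C15Rik (Cmc2 in RefSeq) and Cenpn, a kinetochore protein that binds the centromeric histone, start 285 bp apart on chromosome 8, with 3 members from 367 to 880.5. Lig1, the DNA ligase of replication, and 6330408A02Rik start 95 bp apart on chromosome 7, with 4 members from 217 to 471.3. The nearest DOP centre of these pairs lay 27047, 21280 and 154410 bp away. The 2 Lig1 intervals also aligned to a second place in the genome.

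Matrix, adhesion and protease genes numbered 16 with 19 members. Chst15, a sulfotransferase of chondroitin sulfate, had members of 413 and 390, and Gpc4, a heparan sulfate proteoglycan, had a single member of 374 that was the only untreated peak in its gap. Adam12 and Klk10 carried 2 members each, below percentile 9.48. Cell cycle and DNA repair genes numbered 5, of which Cenpn, Lig1 and Cdc20b had 2 members each. A further 61 genes fell in none of these classes. Among them Fam126b and Zrsr1, an imprinted splicing factor gene (score 415), reached the top 50%, and Speg, Zswim5, Vbp1, Uba1, Osbpl6, Aim1, Rhbdl3, Kctd12b, Stac2, Snx22, Hspb1, Spnb1, Rcsd1, Ccdc48 and Mylk carried 2 or 3 members each.

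**Figure D4:**
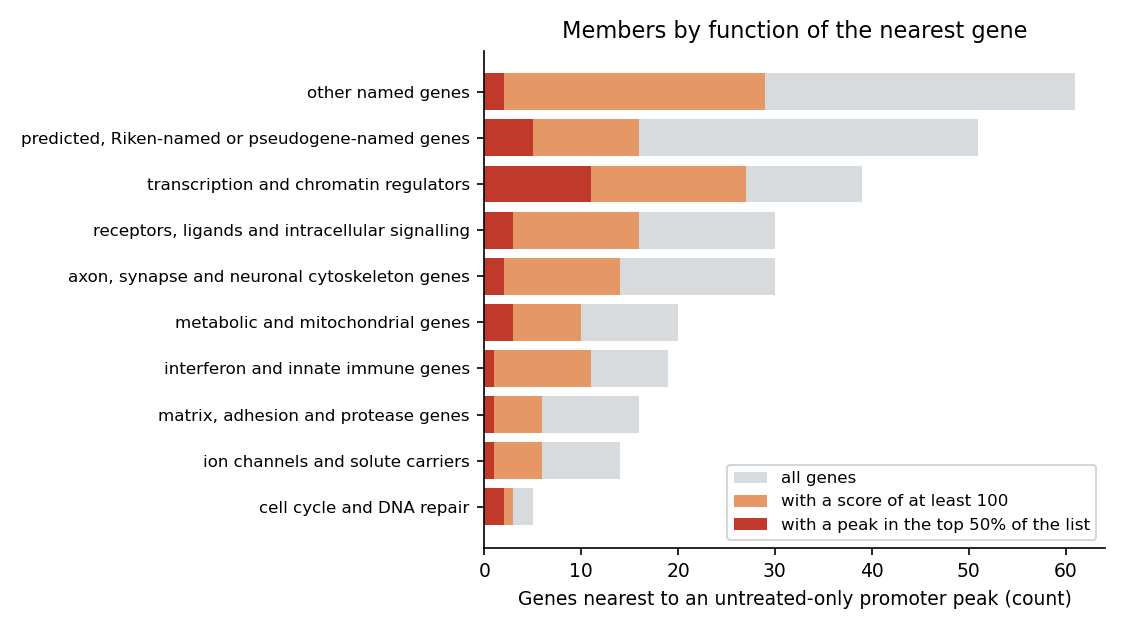
Number of genes nearest to an untreated-only promoter peak (horizontal axis) in each class of gene function (vertical axis); grey is all genes, orange those with a member of score 100 or more, and red those with a member in the top 50% of the list. Transcription and chromatin regulators have the longest red bar, 11 of 39 genes, and predicted, Riken-named or pseudogene-named genes have 5 of 51.

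The 51 genes with predicted, Riken or pseudogene names carried 59 members at a median percentile of 5.10, the lowest of the 10 classes. At 27 of them the interval aligned to a second place in the genome or held repeated sequence, which is 32 of the 59 peaks. Gm10716 on chromosome 9 had members of 1742 and 848.4, and both aligned elsewhere, with 68.3% and 45.0% of their 12-base words repeated nearby. Within 10 kb of its start the untreated list held 36 peaks and the DOP list 26, and further Gm10716 peaks of 1411.5 and 1095.5 fell just outside the rule, 1939 and 1755 bp from a DOP centre. The next in this class were 2310061C15Rik (880.5), described with Cenpn, 1300014I06Rik (Pxdc1 in RefSeq, 525.3), 0610011F06Rik (Mettl26, 431) and Gm15446 (399.8, second alignment). Gm10479, D430041D05Rik and Gm14435 carried 2 or 3 members each. Of 952 predicted and Riken-named genes with an untreated promoter peak, 48 carried a member (5.04%, beside 2.57% over all genes). Of 321 zinc finger genes with names of the Zfp, Zbtb, Zscan or Zkscan type, 3 did (0.935%; Zbtb7b, Zbtb10 and Zbtb7c), and of 217 ubiquitin pathway genes 5 did (2.30%; Trim12c, Fbxo17, Trim30a, Usp2 and Trim69). Of 78 Rab and Tbc1d genes 2 did, Rab11fip4 and Rab9b.

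A second alignment, at least 80% of the interval at 90% identity or more elsewhere in the genome, was found for 44 of the 370 members (11.9%, interval 8.98 to 15.6%). Among the other untreated promoter peaks it was found for 554 of 24638 (2.25%), and among the DOP-only promoter peaks for 50 of 547 (9.14%). In the lowest 10% of the list the shares were 17.2% of 174 members and 8.39% of 620 others. The part of these intervals in the absence of a DOP call was not tested. In the top 50% of the list the 6 members concerned lay at Gm10716 (2), Zbtb10, Lig1, I830012O16Rik and Gm15446.

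Members sat closer to the start than other promoter peaks, and the DOP-only promoter peaks did so too. Flanking peaks at promoters found in both lists count among the others by the rule, and their part in this difference was not tested. Their centres had a median position 122.5 bp downstream of the start (order-statistic interval 95 to 157 bp), against 229 bp (226 to 232 bp) for the other untreated promoter peaks. Within 100 bp of the start lay 23.2% of the members (interval 19.2 to 27.8%) and 10.1% of the others, and more than 500 bp downstream lay 37 of the 370 members and 4927 of the 24638 others. Of the DOP-only promoter peaks, chosen by the mirror rule, 23.9% lay within 100 bp, beside 9.94% of the other DOP promoter peaks. In the lowest 10% of the list 27.6% of 174 members and 11.8% of 620 others lay within 100 bp. Peak centres lay in a 5′ UTR for 23.8% of members and 15.1% of the others, in a coding exon for 21.4% and 15.7%, and in an intron or non-coding exon for 36.5% and 53.6%.

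**Figure D5:**
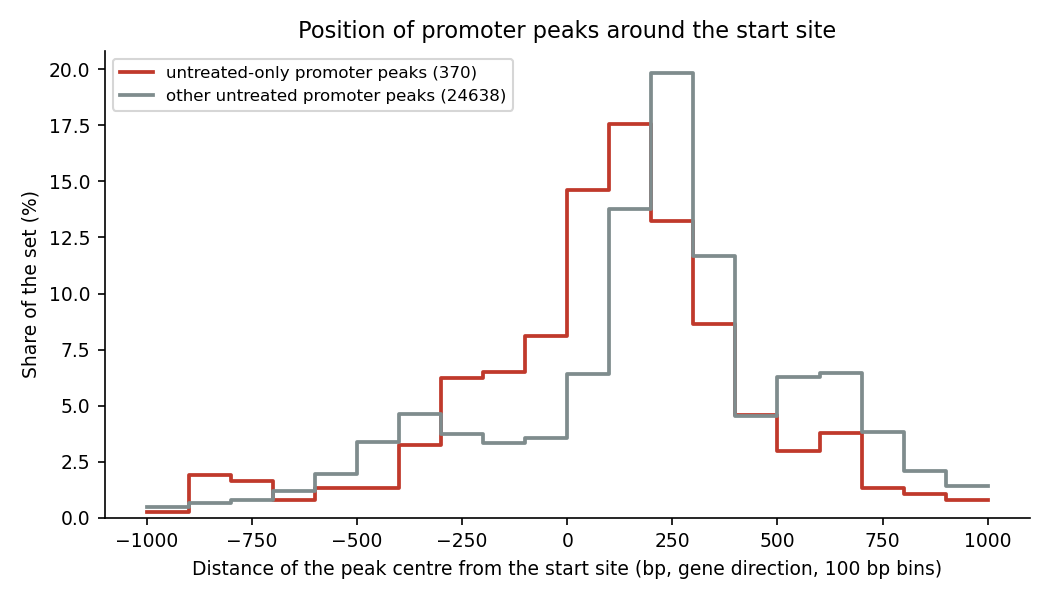
Position of peak centres around the nearest protein-coding start (horizontal axis, bp in the direction of the gene, bins of 100 bp) as a share of each set (vertical axis, %), for the 370 untreated-only promoter peaks (red) and the other 24638 untreated promoter peaks (grey). The red line is highest between 100 and 200 bp downstream and the grey line between 200 and 300 bp, and the grey line has a second rise beyond 500 bp.

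In sequence, faint members were more often CpG-rich than other faint promoter peaks, a contrast that the rule itself can shape. A faint peak within 2 kb of a DOP centre, such as one beside a promoter peak of both lists, is never a member. Such peaks count among the others, and their part in the contrast was not tested. Over all scores the median G and C content was 62.5% in the members and in the other untreated promoter peaks alike. In the lowest 10% of the list, however, the 174 members had a median of 61.8% and the 620 others 53.0%. An interval was called CpG-rich where the observed over expected CpG ratio was at least 0.6 and G and C made up at least 50%. This held for 58.6% of the members in the lowest 10% and 30.6% of the others there, where the members also had the lower scores (median percentile 4.52 and 7.06). In the next 10% it held for 63.6% of 77 members and 29.6% of 1588 others, and in the one above for 45.7% of 35 and 34.9% of 2211. In the top 50% of the list the order was the reverse, 67.3% of 49 members (interval 53.4 to 78.8%) and 73.6% of the others, and the share of the others lay inside the members' interval. In the bottom 50% the mirror set had the same order: 48.5% of 524 DOP-only promoter peaks and 38.5% of the other DOP promoter peaks were CpG-rich, beside 57.0% of 321 members and 3859 of the 9645 other untreated ones.

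The motifs searched in the intervals, on both strands, were the GC box GGGCGG of Sp1, the CCAAT box, the TATA box spelled TATAAA, the E-box CACGTG of Myc and its relatives, the E-box CAGCTG of other bHLH factors, the CRE spelled TGACGTCA of CREB, the site CCGGAAG of ETS factors, the site GCGCATG of NRF1, the site AAGATGGC of YY1 and the site TGANTCA of AP-1. None of them contains another, and a base may fall in matches to more than 1. A GC box lay in 36.5% of the members (interval 31.7 to 41.5%) and 33.8% of the other untreated promoter peaks, CCAAT in 11.6% and 12.7%, TATAAA in 1.89% and 2.59%, CACGTG in 3.51% and 3.49%, CAGCTG in 11.1% and 10.3%, and CCGGAAG in 4.05% and 4.13%. TGANTCA lay in 18 members, 4.86% (interval 3.10 to 7.56%), against 2.26% of the others, and in 3.11% of the DOP-only promoter peaks. GCGCATG lay in 8 members (2.16%) against 1.26%, AAGATGGC in 4 (1.08%) against 1.32%, and TGACGTCA in 3 (0.811%) against 0.239%. A match is a description of the letters only.

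By chromosome the share of promoter peaks that were members ran from 0.952% on chromosome 16 (8 of 840) to 2.82% on chromosome 12 (22 of 780). The peaks nearest to the limits of the rule were of mixed strength. Just inside the 2 kb limit were 1700007K13Rik at 2104 bp (score 58), Gm10716 at 2111 bp and Rps26-ps1 at 2253 bp (score 95), and just outside it, besides Gm10716, was Mtmr11 at 1831 bp (score 246). Just inside the 1 kb limit to the start were Stac2 at 997 bp (score 64), Agpat5 at 991 bp (score 305) and Slc6a4 at 965 bp upstream, and just outside it were Fstl3 at 1012 bp (score 172), Serpinb9g at 1043 bp (score 24) and Fam110b at 1051 bp (score 78.4).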

How the data were processed

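H3K9ac ChIP-seq of STHdh Q111 cells was deposited as 1 peak list per condition. The authors aligned single-end reads to mm9 with Bowtie 2 per the study's methods, whereas the submitters' processing notes name BWA 0.7.10, and called peaks with GPS. How the samples entered the call, the use of the IgG sample and the threshold are not given in the sources used here. The study's methods give smaller numbers of peaks than the deposited lists hold, and which peaks make the difference is not known. The deposited lists give every peak a score that they do not define, so scores were compared only inside 1 list. Read counts were not used, so the depth per sample and its precision are unknown, and intervals cover the counting of peaks only. Other columns of sample values left unused numbered 0.

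Starts, exons and UTRs came from protein-coding transcripts of GENCODE vM1 on NCBIM37, which is mm9. Chromosome lengths were checked, and no peak ran past an end. Older gene names were matched to RefSeq symbols for 279 of 285 genes. Second alignments were searched with minimap2 2.31-r1302, and sequence counted as repeated nearby where at least 25% of its 12-base words occurred 3 times or more within 1000 bp on either side. The scripts ran under Python 3.11.15 with pysam 0.24.0 for sequences, pandas 2.3.3 with numpy 2.4.6 for tables, matplotlib 3.10.9 for plots and scipy 1.17.1 for intervals. The rule was tested on simulated data, and 60 of 60 planted sites were found.

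The members and gene lists were chosen with earlier results of these data known. Named were the 25 highest-scoring members, genes with at least 2 members, members in the symbol lists, the 5 highest in each name-pattern list and the 3 nearest each side of both limits, except a few items not reported here. Further genes were named from the classes of function, which were made after the members were seen. The germ cell list (6 genes with an untreated promoter peak) and the olfactory receptor list (1 gene) held 0 members. Alternatives changed the distances, the start set, the score minimum and repeated sequence.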

Additional observations from a re-analysis of the deposited data

How the results depend on the processing

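Of 66 recomputed values, 40 stayed within 1.5 times for a count, or within the interval, and 26 moved. With a DOP centre only over 500 bp away required, there were 1091 peaks (4.36%) at 938 genes, with a median percentile of 20.1 and 53.5% G and C, and 1625 DOP-only peaks. With over 1000 bp the share was 1.75% and the median percentile 13.4. With over 10 kb the share was 1.22%, and with a start window of 500 bp it was 1.66%. With a score of at least 100 in the list under study there were 185 peaks (0.769%) at 138 genes, median percentile 26.9, and 292 DOP-only peaks, and with that minimum in both lists 195 peaks (0.81%) at 148 genes, median percentile 24.3. In the top 50% of the list there were 49 peaks (0.326%) at 31 genes, median percentile 68.3, with 66% G and C, and 23 DOP-only peaks. Without repeated or twice-aligned sequence the share was 1.33%. Each of these settings changes which peaks can enter. The DOP-only peaks outnumbered the untreated-only ones under every alternative except the top 50%. No paired analysis was possible because each condition has 1 list and the lists carry no replicate, and for the same reason no replicate could be left out in turn. Without counts per sample, a peak that is missing from the DOP list cannot be told apart from one just under the threshold of the call.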
